A study of Mus musculus with 12 samples.

Results

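C1qa, C1qb, C1qc, C1ra, C1s1, C4b, Masp1, Masp2, Mbl1 and Mbl2 encode the recognition molecules, proteases and first cleaved substrate of the classical and lectin pathways of complement. These 10 genes were chosen by name, for their place in the cascade, with earlier results of these data known. The count table held 36528 gene IDs, and all 10 genes passed the filter on low counts. RNA of whole mouse liver was counted per gene in 12 mice. Of these, 6 had been given carbon tetrachloride (CCl4), a solvent that hepatocytes convert to a toxic radical and that scars the liver when given repeatedly, and 6 had been given its vehicle, corn oil. Both were injected into the peritoneum 3 times per week over 6 weeks. Strain, sex and age are not stated in the labels used here, so the contrast is solvent against vehicle after a course of the same length and nothing else is known to be shared or to differ.

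In the classical pathway, C1q binds antibody, pentraxins or dying cells and carries the protease pairs C1r and C1s, which cleave C4 and then C2. In the lectin pathway, mannose-binding lectins, ficolins and some collectins bind sugars on microbes and damaged cells and carry the MASP proteases, which cleave the same substrates. Hepatocytes make most of these plasma proteins, whereas C1q comes largely from macrophages, which in liver include the resident Kupffer cells.

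Library totals ran from 43027778 to 70375852 reads, and the smallest count of any of the 10 genes in any liver was 1255, so counting error was small beside the spread between mice. Albumin transcripts (Alb), which define hepatocytes, averaged 77063 ± 15611 CPM in CCl4 livers and 78023 ± 14782 CPM in oil livers (SD, n = 6 each). CPM here are counts per 1000000 of a library's TMM-adjusted total, an adjustment for composition. Libraries also differed in how far long transcripts were favoured over short ones, measured as the slope of a library's log2 CPM deviations on log2 transcript length. This length slope ran from -0.376 to 0.164 in CCl4 livers and from -0.151 to 0.251 in oil livers, lowest in CCl4 replicate 6 and, among oil livers, in oil replicate 5. The fold changes of the 10 genes are given with and without adjustment for it, and whether it caused any difference between the groups was not tested. In RNA of whole liver, fewer cells of a type and less RNA per cell cannot be told apart.

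The 3 C1q chains rose 2.87-fold to 3.47-fold after CCl4, and the proteases C1ra, C1s1 and Masp2 fell 1.38-fold to 1.68-fold. Mbl2 rose 1.69-fold, a call that was lost on adjustment for the length slope. Its paralog Mbl1 did not pass the test but was called lower on that adjustment (log2 fold change -0.93, adjusted p = 4.49e-05, edgeR). Of the 10 genes, 4 rose (C1qa, C1qb, C1qc and Mbl2), 3 fell (C1ra, C1s1 and Masp2) and 3 did not pass the test (C4b, Masp1 and Mbl1), at an adjusted p of 0.05 in edgeR's quasi-likelihood test with Benjamini-Hochberg adjustment over 16032 genes. Over all of those genes 39.0% were called, 20.6% higher and 18.4% lower in CCl4 livers, with a median log2 fold change of 0.01. For C1qa, C1qb, C1qc and Masp2 every CCl4 liver lay beyond every oil liver, which held for 20.0% of all genes tested.

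**Figure D1:**
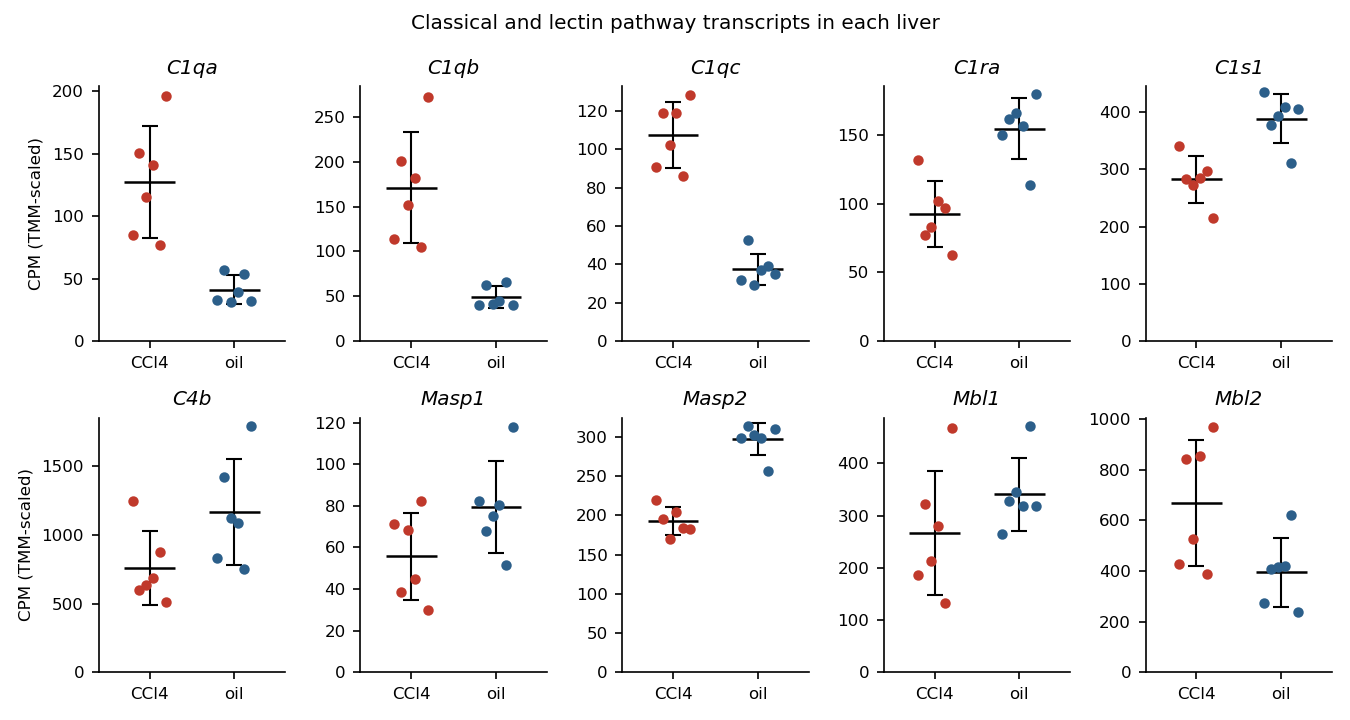
TMM-scaled CPM of the 10 transcripts in each liver (points), with the mean (line) and SD (bar) of 6 CCl4 livers on the left and 6 oil livers on the right of each panel; each vertical axis starts at 0. The groups stand apart for C1qa, C1qb, C1qc and Masp2, and overlap for the other 6 genes.

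The C1q chains are encoded side by side on the minus strand of chromosome 4, with C1qb at chr4:136880126-136886200, C1qc at chr4:136889801-136892936 and C1qa at chr4:136895916-136898844 (GRCm38). Each mature C1q molecule needs all 3 chains, so the bases before the starts of the risen genes are shown where the RefSeq promoter table for GRCm38.p6 held them. Capitals mark the PU.1 letters GAGGAA or their reverse complement TTCCTC; PU.1 is a myeloid transcription factor. The C1qb stretch is chr4:136886201-136886450 and the C1qc stretch chr4:136892915-136893164, both 250 bases on the minus strand, written 5′ to 3′ and ending at the base before the start.
C1qb: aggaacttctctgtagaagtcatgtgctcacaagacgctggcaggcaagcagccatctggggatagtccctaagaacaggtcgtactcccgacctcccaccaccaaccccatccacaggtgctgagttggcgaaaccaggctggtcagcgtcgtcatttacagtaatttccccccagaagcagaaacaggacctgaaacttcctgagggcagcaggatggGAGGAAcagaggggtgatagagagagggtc
C1qc: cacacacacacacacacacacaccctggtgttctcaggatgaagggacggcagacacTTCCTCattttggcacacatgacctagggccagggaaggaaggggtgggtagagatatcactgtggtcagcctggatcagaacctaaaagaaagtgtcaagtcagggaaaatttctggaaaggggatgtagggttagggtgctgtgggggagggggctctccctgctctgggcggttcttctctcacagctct
The letters begin 30 bases before the C1qb start and 193 bases before the C1qc start. They are common, occurring on either strand in 28.3% of 32851 promoter windows of 300 bases, and neither window held the STAT letters TTCNNNGAA, the CEBP letters TTGCNNAA, the interferon response motif or the HNF4 letters CAAAGNNCA. A match is a run of letters, not a site shown to be bound.

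C1qa, the A chain, ranged from 76.8 to 196 CPM around a median of 128 in CCl4 livers, against 31.2 to 57.1 CPM around a median of 35.8 in oil livers. The lowest CCl4 liver, replicate 5, was above the highest oil liver, replicate 2. C1qa rose 3.11-fold, a log2 fold change of 1.64 ± 0.24 (SE, n = 6 each; adjusted p = 0.000126, edgeR).

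C1qb, the B chain, ranged from 105 to 273 CPM around a median of 167 in CCl4 livers, against 40.1 to 65.9 CPM around a median of 42.9 in oil livers. CCl4 replicate 6 was the highest and CCl4 replicate 5 the lowest of the CCl4 livers for both C1qa and C1qb. C1qb rose 3.47-fold, by 1.8 ± 0.24 on the log2 scale (adjusted p = 4.52e-05, edgeR).

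C1qc, the C chain, ranged from 86.1 to 128 CPM around a median of 110 in CCl4 livers, against 29.4 to 52.4 CPM around a median of 35.8 in oil livers. Its CCl4 values were spread less than those of the other chains, with an SD of 17.2 CPM for C1qc, 44.7 CPM for C1qa and 62.4 CPM for C1qb. C1qc rose 2.87-fold, by 1.52 ± 0.16 on the log2 scale (adjusted p = 6.14e-06, edgeR), which gave it rank 342 by p among the 16032 genes.

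Summed over the 3 chains, C1q transcripts stood at 268 to 598 CPM in CCl4 livers and at 102 to 172 CPM in oil livers, with no overlap. The rise kept its direction and its call in all 22 alternative fits. Adjusted for the length slope, the rises were, on the log2 scale, 1.15 for C1qa, 1.31 for C1qb and 1.31 for C1qc (adjusted p of 1.36e-06, 8.97e-08 and 7.30e-07, edgeR).

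Most macrophage markers rose beside C1q. Of 11 genes marking macrophages in general, 8 rose and none fell, with the smallest p for Cd68, Ctss, Mpeg1 and Fcgr1. Over all genes 20.6% rose. The 11 had a median log2 fold change of 1.46 and summed to 514 to 734 CPM in CCl4 livers and 221 to 287 CPM in oil livers. The 3 not called were Csf1r, Mertk and Cd163, at 0.40, -0.08 and -0.42 on the log2 scale (adjusted p of 0.0684, 0.675 and 0.225, edgeR). Of 8 tested Kupffer cell markers 5 rose and none fell, with the smallest p for Marco, Clec1b, Cd5l and Vsig4, a median of 0.80 and a sum of 510 to 915 CPM in CCl4 livers and 243 to 404 CPM in oil livers. All 10 markers of macrophages that derive from monocytes or gather at scars rose, with the smallest p for Ccr2, Spp1, Trem2 and Cd63, a median of 2.9 and a sum of 328 to 574 CPM in CCl4 livers against 51.4 to 76.2 CPM in oil livers. No defining marker was at 0, and Clec4f, a lectin of Kupffer cells, averaged 118 ± 43.6 CPM in CCl4 livers and 78.7 ± 17.7 CPM in oil livers without passing the test (adjusted p = 0.0597, edgeR).

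The ratio of C1q to these markers, not adjusted for the length slope, differed with the marker set. Summed C1q per unit of the Kupffer cell sum was 0.525 to 0.653 in CCl4 livers, above all oil livers at 0.331 to 0.448. Per unit of Clec4f alone it was 3.12 to 4.14 in CCl4 livers and 1.47 to 1.76 in oil livers. Per unit of Cd68, a lysosomal protein of macrophages, it was 4.22 to 11.7 in CCl4 livers and 9.26 to 19.7 in oil livers, with medians of 8.0 in CCl4 livers and 13.1 in oil livers. Per unit of Adgre1 it was 10.1 to 12.7 in CCl4 livers and 7.73 to 10.9 in oil livers, and per unit of Csf1r 4.49 to 18.2 in CCl4 livers and 2.71 to 5.91 in oil livers. The groups overlapped for each of these 3 ratios. Against the general macrophage sum the ratio was 0.521 to 0.814 in CCl4 livers and 0.407 to 0.600 in oil livers, which overlapped.
The ratio to the monocyte-derived macrophage sum went the other way, at 0.663 to 1.04 in CCl4 livers and 1.40 to 2.70 in oil livers, with no overlap. The part of any macrophage type in the C1q rise was not tested.

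The proportions of the chains within a liver differed little beside their rise. The log2 ratio of C1qa to C1qb averaged -0.42 ± 0.04 in CCl4 livers and -0.28 ± 0.10 in oil livers (SD, n = 6 each), a difference of -0.14 (exact two-sided permutation test, adjusted p = 0.0152 over 7 pairs of partners). The ranges of the groups, -0.48 to -0.37 in CCl4 livers and -0.40 to -0.14 in oil livers, overlapped, and leaving out single livers moved the difference between -0.17 and -0.11. For C1qa over C1qc the difference was 0.08 (adjusted p = 0.694) and for C1qb over C1qc it was 0.22 (adjusted p = 0.227, exact permutation tests). Once the length slope was removed, the C1qa to C1qb difference was -0.15 (adjusted p = 0.00606, permutation test). The C1qa to C1qc difference without the slope stood at -0.17 (adjusted p = 0.00379, permutation test) and the C1qb to C1qc difference at -0.02 (adjusted p = 0.773), both turned round, so the place of C1qc among the 3 rises is not settled.

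The 5 genes whose deviations from the group means over the 12 livers were most like those of the C1q mean were Tmem86a, Cd5l, Cfp, Cdpf1 and Clec4f, with Pearson's r of 0.97 to 0.99. Cd5l is a secreted Kupffer cell protein and Cfp encodes properdin, which stabilises the alternative pathway convertase. These livers shared the length slope, and with it removed the 5 were Siglec1, Ptpn6, Myo1f, Agtrap and Tmem86a, with r of 0.91 to 0.95. Siglec1 is a sialic acid receptor of macrophages and Ptpn6 a phosphatase of blood cells.

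The mannose-binding lectins are the recognition molecules of the lectin pathway, and in the mouse Mbl1 encodes MBL-A and Mbl2 encodes MBL-C. Mbl1 lies at chr14:41151456-41163904 and Mbl2 at chr19:30232906-30239687 (GRCm38). Because the ratio of these paralogs differed between the groups, the 100 bases before each RefSeq start are shown, chr14:41151356-41151455 for Mbl1 and chr19:30232828-30232927 for Mbl2, both on the plus strand of GRCm38.p6. The promoter starts of Mbl2, C1qc and C1s1 lie a short way inside the RefSeq spans given for the genes, and that of Masp2 lies far inside its span. Capitals mark the best ungapped match between the 250 bases before the starts.
Mbl1: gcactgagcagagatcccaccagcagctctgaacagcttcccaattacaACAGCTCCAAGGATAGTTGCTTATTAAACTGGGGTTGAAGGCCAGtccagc
Mbl2: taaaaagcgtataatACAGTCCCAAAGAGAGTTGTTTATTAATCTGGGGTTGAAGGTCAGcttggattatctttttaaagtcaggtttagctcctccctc
The match spans 45 bases, of which 38 are identical, and it ends 7 bases before the Mbl1 start and 41 bases before the Mbl2 start. None of the 5 motifs searched for occurred in the window of either gene.

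Mbl2 ranged from 390 to 969 CPM around a median of 683 in CCl4 livers, against 237 to 622 CPM around a median of 411 in oil livers. CCl4 replicates 2, 4 and 6 were above all oil livers and the other 3 CCl4 livers lay among them. Mbl2 rose 1.69-fold, by 0.76 ± 0.27 on the log2 scale (adjusted p = 0.0407, edgeR). The call was close to the threshold and was lost when any one of CCl4 replicates 2, 4 or 6 or of oil replicates 1, 2, 3, 4 or 6 was left out (adjusted p of 0.0644 to 0.0976, edgeR), with a log2 fold change of 0.62 to 0.77 in those fits. Adjusted for the length slope, the fold change of Mbl2 was 0.20 on the log2 scale (adjusted p = 0.201, edgeR).

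Mbl1 ranged from 132 to 468 CPM around a median of 247 in CCl4 livers, against 264 to 471 CPM around a median of 324 in oil livers. CCl4 replicates 1, 3 and 5 were below all oil livers, and CCl4 replicate 6 was close to the highest oil liver. Its log2 fold change of -0.35 ± 0.26 did not pass the test (adjusted p = 0.287, edgeR). Adjusted for the length slope it was -0.93 (adjusted p = 4.49e-05, edgeR), and without CCl4 replicate 6 it was -0.59 (adjusted p = 0.0498).

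The balance between the lectins separated the groups. The log2 ratio of Mbl1 to Mbl2 averaged -1.35 ± 0.21 in CCl4 livers and -0.16 ± 0.32 in oil livers (SD, n = 6 each). It lay between -1.6 and -1.05 in CCl4 livers and between -0.40 and 0.42 in oil livers, so every CCl4 liver was below every oil liver. The difference was -1.18 (exact two-sided permutation test, p = 0.00216, the smallest that 924 splits can give; adjusted p = 0.0152). With the length slope removed it was -1.13 (adjusted p = 0.00379, permutation test), and leaving out single livers moved it between -1.24 and -1.07. With the slope accounted for, the ratio still separated the groups, whereas the call passed to Mbl1 and away from Mbl2.

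**Figure D2:**
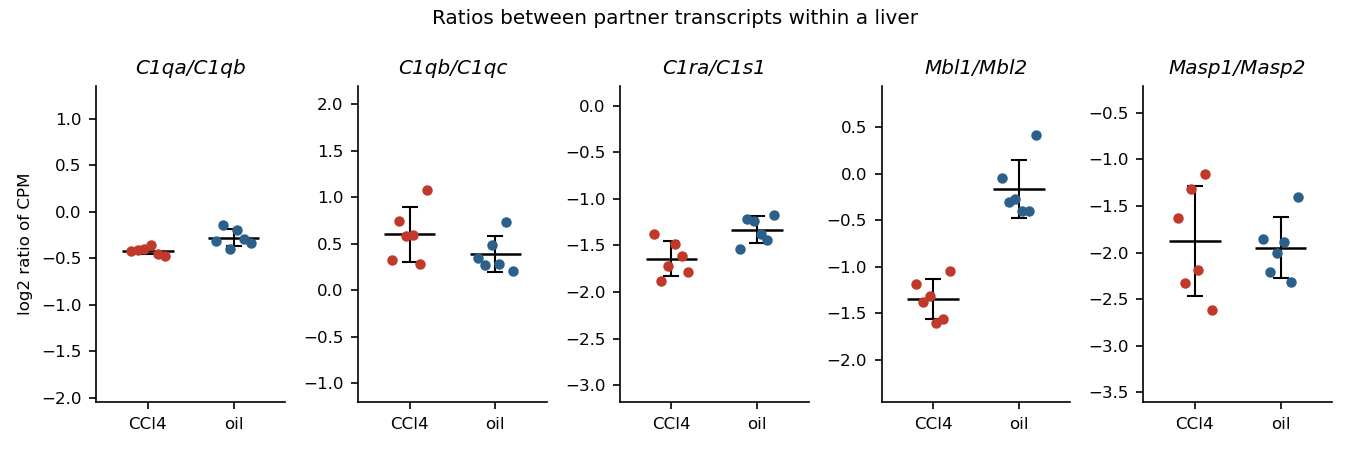
Log2 ratio of CPM between partner transcripts in each liver (points), with the mean (line) and SD (bar) of 6 CCl4 livers on the left and 6 oil livers on the right; every panel spans the same log2 distance. The groups separate for Mbl1/Mbl2, from -1.6 to -1.05 in CCl4 livers and from -0.40 to 0.42 in oil livers, and overlap for the other ratios drawn.

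The other collectins and the ficolin tested did not follow Mbl2. Of 4 tested, 2 fell and none rose, with a median log2 fold change of -0.52, where 18.4% of all genes fell. Colec10, collectin liver 1, averaged 14.4 ± 2.75 CPM in CCl4 livers and 30.8 ± 5.52 CPM in oil livers, a log2 fold change of -1.09 ± 0.17 (adjusted p = 0.00015, edgeR). Colec12, a scavenger receptor collectin, averaged 20.7 ± 2.04 CPM in CCl4 livers and 43.6 ± 9.81 CPM in oil livers, a log2 fold change of -1.08 ± 0.16 (adjusted p = 0.000105). Fcna, ficolin-A, was at 40.0 ± 9.68 CPM in CCl4 livers and 38.7 ± 6.70 CPM in oil livers, and Colec11, the partner of Colec10 in a mixed collectin, at 27.0 ± 4.45 CPM in CCl4 livers and 26.2 ± 4.61 CPM in oil livers; neither passed the test.

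C1ra encodes C1r, the protease that cleaves and activates C1s, at chr6:124512621-124523440 (GRCm38). It ranged from 62.6 to 132 CPM around a median of 89.9 in CCl4 livers, against 114 to 180 CPM around a median of 160 in oil livers. All CCl4 livers but replicate 1 were below the lowest oil liver, replicate 5. C1ra fell 1.68-fold, by 0.75 ± 0.17 on the log2 scale (adjusted p = 0.00348, edgeR), and stayed called in all 22 alternative fits. Adjusted for the length slope, C1ra stood at -0.50 (adjusted p = 0.00445, edgeR).

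C1s1 encodes C1s, the protease that cleaves C4 and C2, beside C1ra at chr6:124530344-124542392 on the minus strand. It ranged from 215 to 341 CPM around a median of 285 in CCl4 livers, against 311 to 435 CPM around a median of 400 in oil livers. As with C1ra, 5 of the 6 CCl4 livers were below all oil livers and replicate 1 was the exception. C1s1 fell 1.38-fold, by 0.46 ± 0.13 on the log2 scale (adjusted p = 0.0109, edgeR). The call was lost with upper-quartile scaling (-0.34, adjusted p = 0.0539, edgeR), which moved the median of all genes to 0.13, and with library totals alone (-0.20, adjusted p = 0.268), which moved it to 0.27. On adjustment for the length slope C1s1 was at -0.30 (adjusted p = 0.0245, edgeR). Of its exon bases, 18.4% overlap Gm16567 on the opposite strand, which was not analysed here.

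The promoter table held 2 starts for C1s1, and the last 100 bases before the downstream one are shown because an HNF4 match (CAAAGNNCA, in capitals) lies 39 bases before it. The stretch is chr6:124542322-124542421 on the minus strand.
C1s1: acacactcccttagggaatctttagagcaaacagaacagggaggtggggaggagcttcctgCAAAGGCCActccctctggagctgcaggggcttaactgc
This motif occurred in 6.4% of promoter windows. Hnf4a, the hepatocyte nuclear receptor for which the motif is named, averaged 328 ± 90.7 CPM in CCl4 livers and 681 ± 130 CPM in oil livers, and fell by 1.05 ± 0.19 on the log2 scale (adjusted p = 0.000681, edgeR). Binding was not measured, and the windows of the other fallen proteases held no such match. Those of C1ra and Masp2 each held a STAT match, as did 8.3% of all windows, and the Masp2 window lies within the gene's RefSeq span, far from its outer end. The C1ra window also held a CEBP and a PU.1 match and the other C1s1 window a CEBP match, letters found in 10.8% of windows for CEBP, and none of the 7 genes with a window held the interferon response motif, found in 3.4%.

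The ratio of C1ra to C1s1 was lower after CCl4. Their log2 ratio averaged -1.64 ± 0.19 in CCl4 livers and -1.33 ± 0.14 in oil livers (SD, n = 6 each), a difference of -0.31 (adjusted p = 0.0303, exact permutation test). The ranges overlapped, and the call was lost when CCl4 replicate 2 or oil replicate 2, 3 or 6 was left out (differences of -0.26 to -0.29). With the length slope removed the difference was -0.22 (adjusted p = 0.0354, permutation test).

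Masp2, the lectin pathway counterpart of C1s, lies at chr4:148594622-148615499 on the plus strand. It ranged from 170 to 220 CPM around a median of 190 in CCl4 livers, against 257 to 314 CPM around a median of 300 in oil livers. Each group was tight, with an SD of 17.7 CPM in CCl4 livers and 20.2 CPM in oil livers, and the highest CCl4 liver was below the lowest oil liver. Masp2 fell 1.54-fold, by 0.62 ± 0.10 on the log2 scale (adjusted p = 0.00033, edgeR), and was called in all 22 alternative fits at -0.68 to -0.37. Adjusted for the length slope it was -0.58.

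Exons of Masp2 share 54.9% of their bases with Tardbp on the opposite strand, which encodes the RNA-binding protein TDP-43. Tardbp averaged 134 ± 23.4 CPM in CCl4 livers and 183 ± 21 CPM in oil livers, and also fell, by 0.45 ± 0.13 on the log2 scale (adjusted p = 0.016, edgeR). The library kit kept strand, but whether the counting used it is not stated in the labels used here, and reads of Masp2 and Tardbp cannot be told apart with certainty.

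Masp1 encodes the protease that activates MASP-2, and by alternative splicing also MASP-3 and the truncated MAp44, which gene-level counts do not separate. At chr16:23451785-23521240 it ranged from 29.8 to 82.4 CPM around a median of 56.6 in CCl4 livers, against 51.6 to 118 CPM around a median of 77.8 in oil livers. CCl4 replicates 2, 4 and 6 were below all oil livers. Its log2 fold change of -0.50 ± 0.25 did not pass the test (adjusted p = 0.123, edgeR) and was -0.05 after adjustment for the length slope. It passed with limma-voom (-0.60, adjusted p = 0.017) and without CCl4 replicate 5 (-0.68, adjusted p = 0.0367, edgeR).

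The balance of the lectin recognition molecule to its protease differed between the groups. The log2 ratio of Mbl2 to Masp2 averaged 1.71 ± 0.59 in CCl4 livers and 0.35 ± 0.58 in oil livers (SD, n = 6 each), a difference of 1.36 (adjusted p = 0.0152, exact permutation test), with overlapping ranges of 0.95 to 2.4 in CCl4 livers and -0.39 to 1.27 in oil livers. With the length slope removed the difference was 0.79 (adjusted p = 0.00379, permutation test). For Masp1 over Masp2 it was 0.07 (adjusted p = 0.799, exact permutation test) and, with the length slope removed, 0.53 (adjusted p = 0.00379, permutation test).

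C4b encodes complement C4, the substrate that both pathways cleave, at chr17:34728139-34743902 on the minus strand. It ranged from 515 to 1249 CPM around a median of 663 in CCl4 livers, against 756 to 1790 CPM around a median of 1104 in oil livers. CCl4 replicates 2, 3, 4 and 6 were below all oil livers, while CCl4 replicate 1 was above 4 of the 6 oil livers. The log2 fold change of -0.62 ± 0.25 did not pass the test (adjusted p = 0.0599, edgeR). It passed without CCl4 replicate 1 (-0.84, adjusted p = 0.00933, edgeR) and without CCl4 replicate 5, oil replicate 1 or oil replicate 5. It also passed with DESeq2 (-0.64, adjusted p = 0.028) or limma-voom (-0.70, adjusted p = 0.00887). C4b passed narrowly with DESeq2 size factors (adjusted p = 0.0479, edgeR) and without the lowest length slope of each group (adjusted p = 0.0498, edgeR). After adjustment for the length slope it was -0.27 (adjusted p = 0.276, edgeR), and 14 of 22 alternative fits left it uncalled.

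Close copies bear on C4b, C1ra and C1s1. Of the 50-base windows of their transcripts, 34.57% of those of C4b occurred also in C4a, 48.02% of those of C1ra in C1rb and 21.85% of those of C1s1 in C1s2. C4a, the neighbouring copy known as sex-limited protein, averaged 525 ± 142 CPM in CCl4 livers and 648 ± 156 CPM in oil livers and did not pass the test (adjusted p = 0.229, edgeR), so how reads were split between it and C4b matters. C1rb and C1s2 averaged under 0.2 CPM in either group and were not tested, and C1rl, a further relative, was at 110 ± 12.9 CPM in CCl4 livers and 134 ± 14.4 CPM in oil livers (adjusted p = 0.0574, edgeR). With the counts of each gene and its copy summed, C4b stood at -0.50 (adjusted p = 0.0889, edgeR) and C1ra and C1s1 at -0.75 and -0.46.

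**Figure D3:**
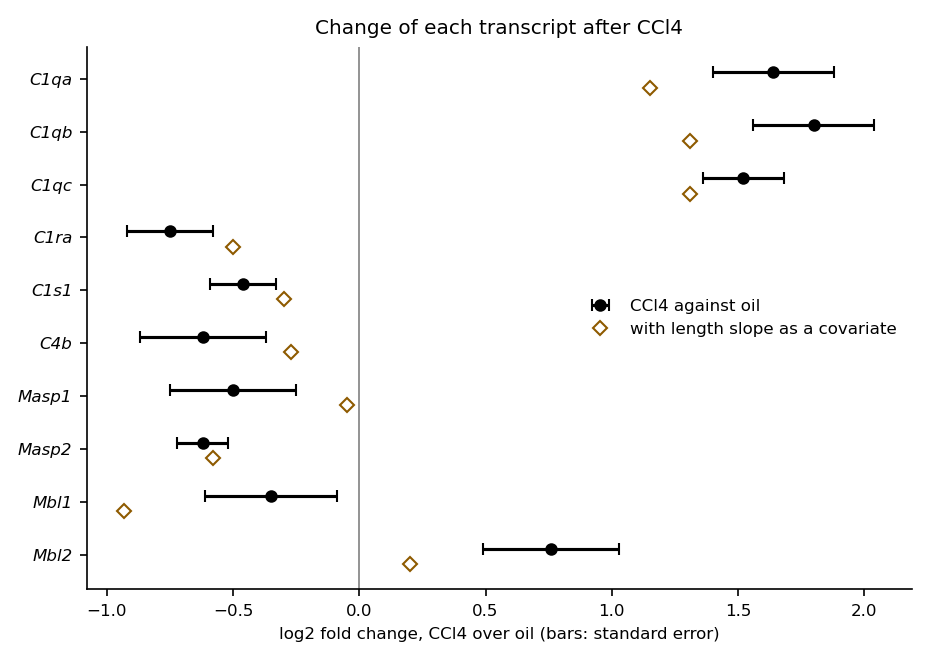
Log2 fold change of each transcript, CCl4 over oil, from edgeR (filled circles, with the SE as bars) and from a fit that adds each library's length slope as a covariate (open diamonds). C1qa, C1qb and C1qc are at 1.15 or more in both fits and Masp2 is at -0.62 and -0.58, while Mbl1 moves from -0.35 to -0.93 and Mbl2 from 0.76 to 0.20.

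The length slope sorted several of the 10 transcripts within each group. Per unit of slope, log2 CPM differed within groups by -2.82 for Mbl2, -2.55 for Mbl1, -2.38 for C1qa and -2.33 for C1qb, whose longest transcripts have 1040 to 1563 bases. It differed by 2.66 for Masp1 and 1.88 for C4b, whose longest transcripts have 5345 and 5379 bases. For Masp2, with 3058 bases, it differed by 0.23. C1qc, with 1203 bases, was at -1.06, C1ra, with 2981 bases, at 1.34 and C1s1, with 2946 bases, at 0.87. The response thus did not follow length strictly among the 10 genes. Among all tested genes with a length, Mbl2 stood at percentile 4.1 of this response and Masp1 at percentile 91.9.

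**Figure D4:**
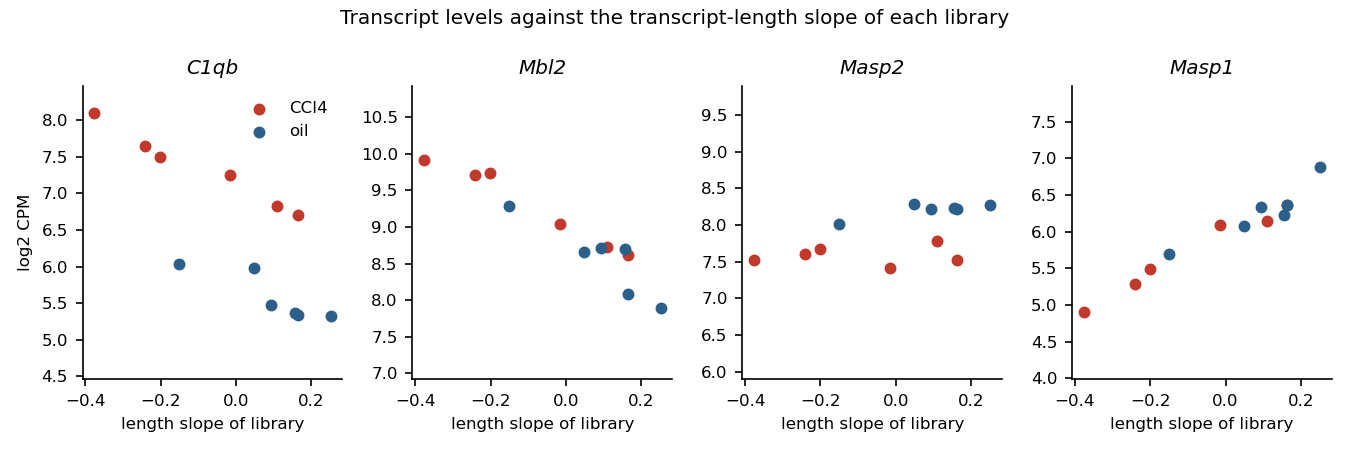
Log2 CPM of C1qb, Mbl2, Masp2 and Masp1 (vertical, panels of equal span) against the length slope of the library (horizontal), with 1 point per liver, CCl4 in red and oil in blue. Where both groups have livers, between slopes of -0.151 and 0.164, C1qb and Masp2 stay apart between them, whereas Mbl2 and Masp1 of both groups lie along a common line.

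On a per-length scale the order of the transcripts differed between the groups. In CPM per kilobase of exon, CCl4 livers ran Mbl2 (613), Mbl1 (170), C1qb (157), C4b (134), C1qa (123), C1s1 (90.3), Masp2 (58.4), C1qc (55.7), C1ra (30.9) and Masp1 (5.68). Oil livers ran Mbl2 (363), Mbl1 (217), C4b (205), C1s1 (124), Masp2 (89.7), C1ra (51.9), C1qb (45.3), C1qa (39.3), C1qc (19.4) and Masp1 (8.06). C1qb thus stood at rank 3 in CCl4 livers and at rank 7 in oil livers. In CCl4 livers the neighbours from Mbl1 down to C1s1 overlapped over livers, as did Masp2 and C1qc, so their order is not settled; Mbl2 was apart from Mbl1 in CCl4 livers and overlapped it in oil livers. In oil livers Mbl1, C4b and C1s1 overlapped in turn, as did C1ra, C1qb and C1qa.

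**Figure D5:**
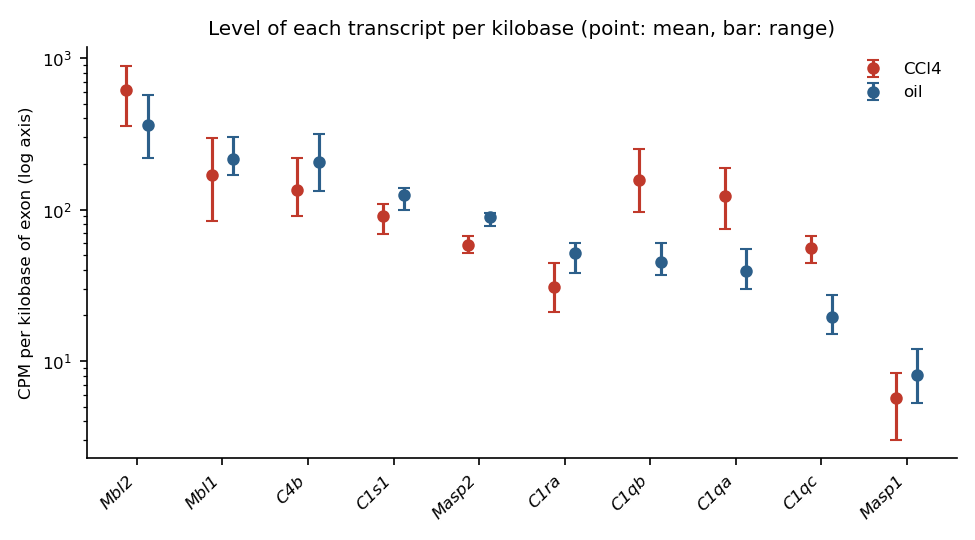
CPM per kilobase of exon (log axis) for each transcript, ordered by its level in oil livers, with CCl4 (red) left of oil (blue); points are means and bars the range over 6 livers. Mbl2 is highest and Masp1 lowest in both groups, and C1qb stands at rank 3 in CCl4 livers and rank 7 in oil livers.

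Inhibitors and cofactors that act on the same steps moved in both directions. Of 8 tested, 3 rose and 2 fell, with a median log2 fold change of 0.37, where 20.6% of all genes rose and 18.4% fell. Serping1, the C1 inhibitor that removes C1r, C1s and the MASPs from their complexes, averaged 634 ± 112 CPM in CCl4 livers and 932 ± 150 CPM in oil livers, and fell by 0.56 ± 0.15 on the log2 scale (adjusted p = 0.0081, edgeR). Susd4, a membrane protein reported to restrain the classical and lectin convertase, averaged 0.551 ± 0.192 CPM in CCl4 livers and 43.8 ± 11.5 CPM in oil livers, a log2 fold change of -6.31 ± 0.28 (adjusted p = 9.26e-09). Cfi, the protease that cleaves C4b and C3b proteins, averaged 916 ± 129 CPM in CCl4 livers and 719 ± 96.4 CPM in oil livers (adjusted p = 0.0482), and Cr1l, a membrane cofactor for it in rodents, 44.0 ± 12.5 CPM in CCl4 livers and 31.7 ± 4.53 CPM in oil livers (adjusted p = 0.0472). The rises called in this list numbered 1 to 6 over the alternatives, with another count than 3 in most of them. Cr2, a receptor for C3 fragments on B cells, was low, at 0.816 ± 0.164 CPM in CCl4 livers and 0.315 ± 0.0625 CPM in oil livers (adjusted p = 0.000204), and B and plasma cell markers summed to 6.37 to 13.2 CPM in CCl4 livers and 4.26 to 5.31 CPM in oil livers. C4bp, the plasma cofactor that binds C4b protein, was at 670 ± 75.0 CPM in CCl4 livers and 625 ± 39.8 CPM in oil livers and did not pass the test.

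The steps after C4 fell in part. Of 9 genes from C2 to C9, 5 fell and none rose, with a median log2 fold change of -0.46, where 18.4% of all genes fell. C2, the other substrate of C1s and MASP-2, averaged 75.1 ± 12.9 CPM in CCl4 livers and 135 ± 24.2 CPM in oil livers, with every CCl4 liver below every oil liver, and fell by 0.85 ± 0.15 on the log2 scale (adjusted p = 0.00056, edgeR). C8b, C6 and Hc, which encode terminal components, fell by 1.05, 1.49 and 0.70 on the log2 scale. C3 averaged 6604 ± 2093 CPM in CCl4 livers and 8990 ± 2834 CPM in oil livers without passing the test (adjusted p = 0.16, edgeR). In the alternative pathway Cfp rose, at 38.3 ± 16.8 CPM in CCl4 livers and 16.7 ± 4.02 CPM in oil livers, and Cfb did not pass the test. Cfd fell, at 0.107 ± 0.154 CPM in CCl4 livers and 0.843 ± 0.757 CPM in oil livers (adjusted p = 0.00786, edgeR). Its levels were near the floor and the groups overlapped. The falls called in this list numbered 0 to 2 over the alternatives.

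Among 10 tested receptors and partners of C1q, 5 rose and 1 fell, with a median of 0.47, where 20.6% of all genes rose and 18.4% fell. Itgax, which pairs with Itgb2 to form complement receptor 4, averaged 5.55 ± 1.05 CPM in CCl4 livers and 0.814 ± 0.323 CPM in oil livers (log2 fold change 2.75 ± 0.25, adjusted p = 1.96e-06, edgeR). Lair1, an inhibitory receptor for collagens and C1q, averaged 8.83 ± 2.41 CPM in CCl4 livers and 2.38 ± 0.529 CPM in oil livers (adjusted p = 1.14e-05). Cd93 and Itgb2 also rose, by 1.29 and 1.02, and Lrp1, a receptor that clears protease and inhibitor complexes, fell by 0.85 ± 0.26 (adjusted p = 0.0187, edgeR).
All 6 receptors for C3 fragments and anaphylatoxins rose, with a median of 1.51. The smallest p were those of C3ar1, Itgax, C5ar1 and Vsig4, and C3ar1 stood at 15.1 ± 1.92 CPM in CCl4 livers and 3.05 ± 0.561 CPM in oil livers. Of the 6, Itgam and Itgax were also counted among the C1q receptors, and Itgax also among the monocyte-derived macrophage markers. Vsig4 was also counted among the Kupffer cell markers, so these lists are not separate observations. Of the pentraxins that C1q binds, Crp fell, with 331 ± 44.9 CPM in CCl4 livers and 566 ± 164 CPM in oil livers (adjusted p = 0.00291, edgeR), and Apcs, serum amyloid P, was at 479 ± 209 CPM in CCl4 livers and 288 ± 243 CPM in oil livers (adjusted p = 0.193). The antibody constant region genes chosen as C1q ligands were not analysed here.

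Of 10 hepatocyte markers 2 rose (Ahsg and Hpx) and 2 fell (Apob and Serpina1c), with a median of -0.01 and a summed level of 143406 to 194942 CPM in CCl4 livers and 124883 to 175828 CPM in oil livers. These 4 calls of 10 are near the 39.0% called over all genes, and the rises numbered 1 to 4 over the alternatives. Of 10 markers of stellate cells and fibroblasts 9 rose, of 6 of endothelial cells 2 rose and 1 fell, of 6 of dendritic cells 4 rose, of 5 of B and plasma cells 4 rose, of 4 of cholangiocytes 1 rose, and of 2 tested of neutrophils none was called. The other 4 neutrophil markers were too low for the filter, and the called rises in that list numbered 0 to 3 over the alternatives. Those 4, Ly6g, Mpo, Camp and Ngp, had means of 0.0429 to 0.516 CPM in CCl4 livers and 0.0318 to 0.0915 CPM in oil livers. Of 13 acute phase genes, which hepatocytes raise under inflammation, 2 rose (Lcn2 and Cp) and none fell, with a median of -0.04. Of 12 transcription factors of hepatocytes and macrophages, 3 rose and 4 fell, where 20.6% of all genes rose and 18.4% fell. Spi1, which encodes PU.1, averaged 10.6 ± 1.46 CPM in CCl4 livers and 4.38 ± 0.923 CPM in oil livers (adjusted p = 2.43e-05, edgeR), Irf8 also rose and Cebpa fell.

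The genes most like C4b over the 12 livers, by Pearson's r of deviations from the group means, were Lrp1, Tfr2, Serping1, Cpn2 and Chrm3 (0.93 to 0.97), and with the length slope removed they were Clu, C4a, Serping1, Lrp1 and Vtn (0.93 to 0.96). Clu and Vtn encode the plasma inhibitors of the membrane attack complex clusterin and vitronectin. For C1s1 they included Parva, Pbx2, Impa1 and Gcnt4 (0.95 to 0.96), for Masp1 they were Gcc2, Spg11, Glg1, Tgfa and Pag1 (0.97 to 0.99), and for Mbl2 Fahd2a, Mtfp1, Fuca1 and Pigx were among the 5 (0.98). None of the 5 for C1s1, Masp1 or Mbl2 was among the 5 once the slope was removed.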

How the data were processed

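RNA of whole liver was measured in 12 mice, 6 given CCl4 and 6 given corn oil. Per the labels' protocols, total RNA came from a column kit and the library kit kept strand. The authors deposited whole-number read counts per gene without normalisation, and the 12 columns of the series table equalled the sample files. The genome build was GRCm38, per the submitters' processing notes; which aligner, counter and annotation were used, and whether counting kept strand, is not given in the sources used here. Library totals ran from 43027778 to 70375852 counts.

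Gene IDs were named from RefSeq (GRCm38.p6, 31049 IDs) and GENCODE M21 (78 IDs), and 5401 unnamed IDs held 2.19% of counts. All 30 pairs of livers within a group were further apart than counting error allows (lowest chi-square per gene 49.4). The labels call each sample 1 liver, and p-values measure the spread between these 12 samples. After filterByExpr and TMM scaling, counts were tested with edgeR 4.0.16 under R 4.3.3 (robust quasi-likelihood test, Benjamini-Hochberg adjustment over 16032 genes, threshold 0.05), after the script was tested on simulated data. Log2 CPM used a prior count of 2, and the SE was the fold change over the square root of F. Ratios between 7 pairs of partners were compared by exact permutation in Python 3.11.15 with scipy 1.17.1. Permutation tests on ratios with the length slope removed were not exact. They did not count the error of that removal, so their p may be too small. The length slope used the longest GENCODE transcript of 13882 of the 16032 tested genes (86.6%).

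The 10 genes and all gene lists were chosen with earlier results of these data known. Named in full were the 10 genes; of each other list, the called genes with the 4 smallest p and the called gene with the smallest p against the list's majority; and the 5 genes most like the C1q mean, C4b, C1s1, Mbl2 and Masp1, each averaging 1 or more in log2 CPM. Uncalled genes named beside these, and the Mbl1 and Mbl2 promoter match, were chosen after their values were seen. Alternatives were DESeq2 1.42.0, limma-voom (limma 3.58.1) with quality weights, DESeq2 size factors, upper-quartile scaling, library totals alone, no low-count filter, at least 50 counts in 6 libraries, the length slope as a covariate, a prior count of 0.5, the longest transcript as length, and leaving out each library. Added after the data were seen were leaving out the library of each group with the lowest length slope, removing the slope from ratios and likeness, and summing close copies. Motifs were searched on both strands of windows from 250 bases before to 50 bases after RefSeq starts. The table held 7 of the 10 genes, not C1qa, C4b or Masp1. Some genes that the rule names are not reported here.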

Additional observations from a re-analysis of the deposited data

Results flagged for a closer look

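One value among the 34 groups of 6 livers examined, the 10 transcripts and 7 ratios in either group, stood apart from the others of its group. Masp2 in oil replicate 5 was at 257 CPM, the lowest oil liver, and its gap to the next liver took 0.74 of the range of the oil group, more than Dixon's test allows at the 95% level for 6 samples. Chance flags about 1 in 20 groups. Oil replicate 5 also had the lowest length slope of the oil livers, at -0.151, and the part of that in its Masp2 level was not tested. The value was still above the highest CCl4 liver, at 220 CPM.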

How the results depend on the processing

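C1qa, C1qb, C1qc, C1ra and Masp2 kept their direction and call in all 22 alternative fits, which left out single livers, changed the scaling, filter or test, or added the length slope. C1s1 kept its call in 20 of 22 and Mbl2 in 13 of 22. C4b stayed uncalled in 14 of 22, and Masp1 and Mbl1 in 20 of 22 each. Library totals alone gave 5474 genes higher and 1302 lower in CCl4 livers, against 3305 and 2951 with TMM, and moved the median of all genes to 0.27. Of the 10 genes, 5 were lower with limma-voom and 5 without CCl4 replicate 5, where 3 were lower with edgeR on all livers. Leaving out single livers moved the log2 ratio difference between -0.36 and -0.26 for C1ra/C1s1, between -0.07 and 0.22 for Masp1/Masp2 and between -0.01 and 0.15 for C1qa/C1qc, so the last 2 changed sign. With the length slope removed the differences were -0.17 for C1qa/C1qc, -0.02 for C1qb/C1qc and 0.53 for Masp1/Masp2; the cause was not tested. Called rises among inhibitors and cofactors numbered 1 to 6 over the alternatives, and called falls among the 9 genes after C4 numbered 3 to 5. The longest transcript as length moved 2 genes, C1qc and Masp2, in the CCl4 order. No paired analysis was possible because the labels give the groups no shared replicate numbers. Depth did not limit the 10 genes, with at least 1255 counts each per liver. C4b, C1ra and C1s1 depend on how reads of their copies were assigned, and Masp2 and C1s1 on the use of strand, neither of which is given in the sources used here.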
